A study of Mus musculus with 62 samples.

Results

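The transcription factors described here set the choice of blood progenitors between the monocyte and the granulocyte fate: the C/EBP proteins Cebpa, Cebpb, Cebpd and Cebpe, the ETS factor PU.1 (Sfpi1 in the files, also named Spi1), the interferon regulatory factor Irf8, the zinc finger repressor Gfi1 and the Krüppel-like factor Klf4. They were taken by name, and all 8 of 8 had a row among the 37620 genes of the count table. The identifiers there are ENSMUSG00000034957 (Cebpa), ENSMUSG00000056501 (Cebpb), ENSMUSG00000071637 (Cebpd), ENSMUSG00000052435 (Cebpe), ENSMUSG00000002111 (Sfpi1), ENSMUSG00000041515 (Irf8), ENSMUSG00000029275 (Gfi1) and ENSMUSG00000003032 (Klf4). In RefSeq's GRCm38.p6 the genes lie at chr7:35119293-35121928 (Cebpa), chr2:167688915-167690432 (Cebpb), chr16:15887286-15889545 (Cebpd), chr14:54710363-54712174 (Cebpe), chr2:91082374-91115759 (Sfpi1), chr8:120736358-120756694 (Irf8), chr5:107716655-107725805 (Gfi1) and chr4:55527137-55532475 (Klf4).

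RNA had been sequenced in bulk from 62 mouse samples. ER-Hoxb8 cells are bone marrow progenitors that an estrogen-dependent Hoxb8 fusion protein holds at the granulocyte-monocyte progenitor (GMP) stage. Each of 24 clones gave 1 library as GMP cells, in culture medium that held SCF, the ligand of Kit, and 1 library as monocytic cells, so every clone library is a single culture of cells that carry the fusion. The other 14 libraries were primary monocytes sorted by flow cytometry from mouse bone marrow. A pair of libraries was made for each of 7 groups: the classical, intermediate and nonclassical subsets, and classes 1, 2, 3 and 4. The labels give no strain, age or gate, define neither the classes nor the treatment of the monocytic cells, and leave unsaid whether the members of a pair come from different animals or cultures, so each p-value reflects no more than the spread among these libraries.

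Levels are given in CPM, counts relative to the library total with TMM scaling over all 62 libraries. Total counts, in megacounts (M), were 12.6 to 47.3 M in progenitors and 22.9 to 34.5 M in monocytic cells of clones 1 to 13, against 0.362 to 16.5 M and 1.83 to 9.12 M in clones 15 to 25, and 21.2 to 35.0 M in primary cells. Results are therefore also given for each of these sets of 13 and 11 clones. The labels name no batch. The libraries labelled monocytic held transcripts of both lineages: 14 monocyte genes such as Csf1r and Ly6c2 summed to between 5988 and 65615 CPM, and 13 neutrophil granule genes such as Ltf and Camp to between 130.5 and 83639 CPM. Mast cell and basophil genes (12 listed) summed to between 138.9 and 13428.5 CPM in monocytic libraries and between 1352 and 13250 CPM in progenitors. In bulk RNA, fewer cells of a type and less RNA per cell cannot be told apart.

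As background, PU.1 is needed for monocytes and granulocytes to form, and C/EBPα for the GMP stage. High PU.1 and Irf8 favour monocytes and dendritic cells, with Klf4 acting below them, whereas Gfi1 and C/EBPε drive the granulocyte programme, C/EBPε being required for secondary granule proteins. Irf8 protein can bind C/EBPα and limit its action, and Gfi1 represses monocyte genes. C/EBPβ and C/EBPδ are induced by growth factors and inflammation, and C/EBPβ supports survival of nonclassical monocytes.

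RefSeq promoter windows were on hand for 5 of the 8 genes (Cebpa, Cebpb, Irf8, Gfi1 and Klf4; build GRCm38.p6) and were cut to the 250 bases before the start. Those of Irf8 and Gfi1 are shown because these are the opposed regulators to which the clone data below return. Capitals mark matches, on either strand, to TTGCNNAA (C/EBP), GAGGAA (PU.1), AAATCA (the Gfi1 core) and CCACCC (KLF).
Irf8, chr8:120736108-120736357, plus strand: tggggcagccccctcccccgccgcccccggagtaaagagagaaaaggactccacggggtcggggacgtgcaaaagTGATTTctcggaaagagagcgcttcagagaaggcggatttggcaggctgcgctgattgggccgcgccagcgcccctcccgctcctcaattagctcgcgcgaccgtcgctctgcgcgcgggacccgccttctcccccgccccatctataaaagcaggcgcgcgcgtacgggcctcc
Irf8, further start, chr8:120738389-120738638, plus strand: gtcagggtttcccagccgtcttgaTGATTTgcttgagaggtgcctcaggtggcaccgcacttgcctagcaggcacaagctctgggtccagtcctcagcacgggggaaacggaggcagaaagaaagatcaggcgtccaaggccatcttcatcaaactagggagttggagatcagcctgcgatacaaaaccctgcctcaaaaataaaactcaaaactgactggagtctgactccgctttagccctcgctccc
Gfi1, chr5:107725806-107726055, minus strand: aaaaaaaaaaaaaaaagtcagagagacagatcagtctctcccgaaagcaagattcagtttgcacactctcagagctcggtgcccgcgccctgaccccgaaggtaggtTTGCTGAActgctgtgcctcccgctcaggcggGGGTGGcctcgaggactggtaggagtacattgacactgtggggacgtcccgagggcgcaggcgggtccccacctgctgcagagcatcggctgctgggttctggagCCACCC
Both Irf8 windows held the Gfi1 letters on the minus strand, 175 to 170 and 226 to 221 bases before the start. The Gfi1 window shown held the C/EBP letters 143 to 136 bases before the start and the KLF letters on each strand, and the window of a further Gfi1 start, chr5:107724344-107724593, held none of the 4 motifs. Of 32851 promoters of the same length, 12.4% held the Gfi1 letters, 9.56% the C/EBP letters, 28.1% the KLF letters and 23.3% the PU.1 letters. A match is a description of these letters and no evidence of binding.

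The first comparison set the monocytic cells of each clone against its own GMP cells. Of the 8 factors, 6 were higher in monocytic cells (Cebpe, Cebpd, Cebpb, Irf8, Klf4 and Sfpi1), 1 was lower (Cebpa) and 1 did not pass (Gfi1; edgeR's quasi-likelihood test with the clone as block, Benjamini-Hochberg adjusted p under 0.05 over 11614 genes). In the same test 38.5% of all genes were called higher, 40.1% lower and 78.6% in either direction, so a call alone sets no gene apart here. Per kilobase of exon, Cebpa had the highest mean level of the 8 in progenitors, 163 CPM per kb, followed by Sfpi1 with 58.4 and Gfi1 with 41.9. In monocytic cells Sfpi1 (273 CPM per kb) and Cebpe (272) led, and Cebpa stood at 96.9. Klf4 was the lowest in both states, at 0.956 and 4.58 CPM per kb.

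**Figure D1:**
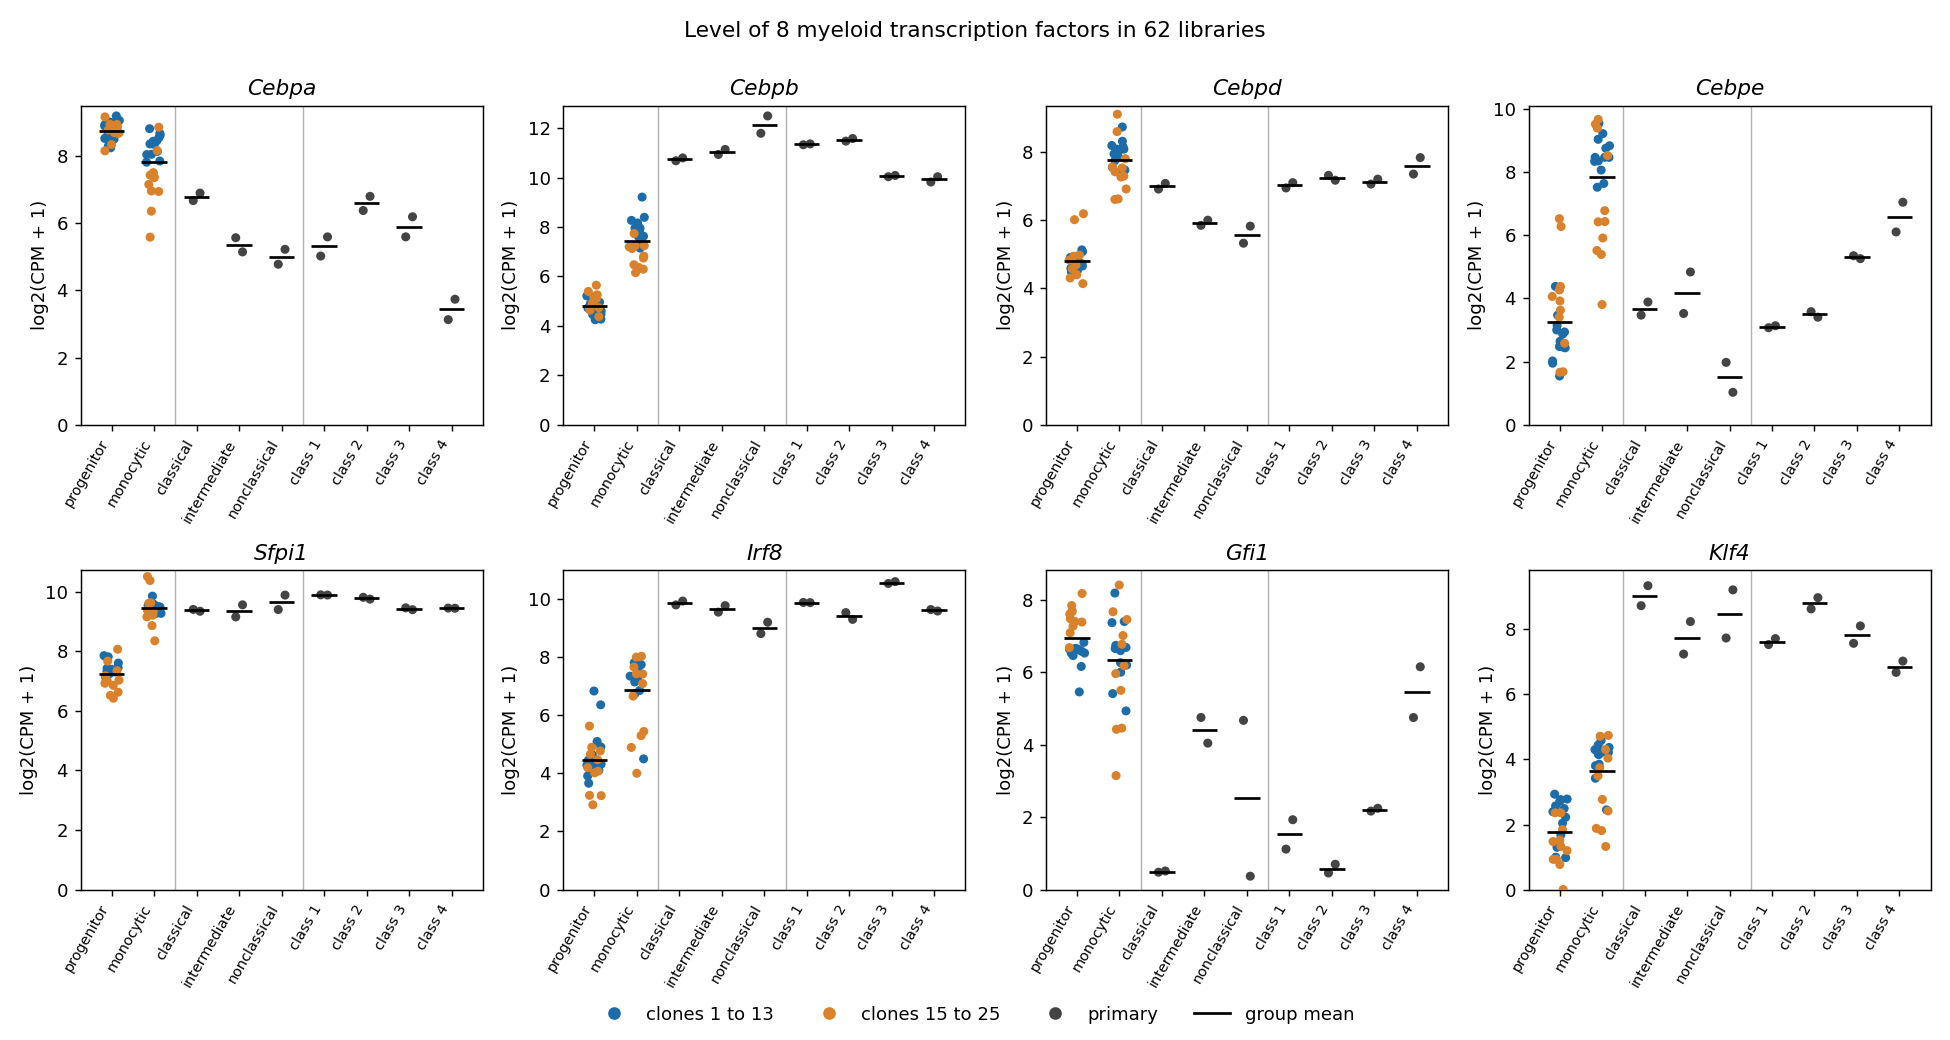
Level of each factor as log2(CPM + 1) in all 62 libraries, 1 panel per gene, with points for libraries and bars for group means of the log values; blue and orange mark the clone sets and grey the primary cells. Cebpb, Irf8 and Klf4 lie higher in the primary libraries than in any clone library, whereas Cebpe reaches its highest values in monocytic clones.

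Sfpi1 encodes PU.1, the ETS factor that opens myeloid enhancers. It ranged from 85.1 to 268 CPM in progenitors (median 157) and from 327 to 1464 CPM in monocytic cells (median 711), with no overlap. The increase was 2.26 on the log2 scale (SE 0.0752, adjusted p = 2.18e-19) and was seen in 24 of 24 clones. It was of much the same size in both sets, 2.15 for clones 1 to 13 as against 2.46 for clones 15 to 25. Primary monocytes held the level of the monocytic clones. Sfpi1 was at 680 and 652 CPM in classical, 572 and 757 in intermediate and 679 and 949.8 in nonclassical monocytes, which overlapped. In the classes it was at 956 and 952 CPM in class 1, 903 and 865 in class 2, 706 and 676 in class 3 and 702 and 699.7 in class 4. Classes 1 and 2 thus lay above classes 3 and 4, with differences of −0.40 to −0.45 on the log2 scale. All 4 of these contrasts passed, and each was lost when some single library was left out (adjusted p up to 0.195).

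Irf8, the factor whose loss turns monocyte precursors toward granulocytes, ranged from 6.56 to 113 CPM in progenitors (median 18.7) and from 15.05 to 261 CPM in monocytic cells (median 156). The lowest progenitor value, 6.56 CPM, was that of clone 21, the shallowest library, where it equals the level of 3 counts. The groups overlapped, and 22 of 24 clones had more in the monocytic library. The increase was 2.59 (SE 0.268, adjusted p = 1.22e-09). Classical monocytes had 893 and 979 CPM, above every clone. Culture and cell type cannot be told apart in that contrast. Intermediate monocytes had 751 and 877 CPM and nonclassical monocytes 449.8 and 589.9 CPM, the lowest of the primary groups. The difference of nonclassical from classical cells, −0.81 (SE 0.172), did not pass (adjusted p = 0.0677). Class 3 stood above every other group in the study, with 1491 and 1557 CPM against 947 and 942 in class 1, 743 and 632 in class 2 and 799 and 771 in class 4.

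Klf4, a factor of the Ly6C-positive and patrolling monocyte lineages that acts below PU.1 and Irf8, was the faintest of the 8 in the clones. It ranged from 0 to 6.63 CPM in progenitors (median 2.40) and from 1.505 to 25.7 CPM in monocytic cells (median 16.1), and these ranges overlapped. The 0 was in the clone 21 progenitors, the shallowest library, where 3 counts would be 6.56 CPM, so the gene cannot be called absent there. In clone 21 the monocytic library had 2.51 CPM from 7 counts, under that limit, so no direction can be given for it, and the other 23 clones had more Klf4 in the monocytic library. The fitted increase was 2.34 (SE 0.221, adjusted p = 1.81e-10). Primary cells held far more, with 424 and 650.1 CPM in classical, 150.4 and 302 in intermediate and 212 and 595 in nonclassical monocytes. Replicates differed widely. Classical and intermediate cells did not overlap, nonclassical cells overlapped both, and no subset contrast passed. In the classes it was at 185 and 209.7 CPM in class 1, 396 and 503 in class 2, 189 and 275 in class 3 and 101 and 129 in class 4.

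Cebpa, needed for the step from common to granulocyte-monocyte progenitors, was the factor that fell. It ranged from 282 to 580.1 CPM in progenitors (median 438) and from 46.8 to 459.8 CPM in monocytic cells (median 262), and 20 of 24 clones had less after maturation. The change was −0.84 (SE 0.175, adjusted p = 8.96e-05). Clones 1 to 13 gave −0.35, where 3 of 13 clones had more in the monocytic cells, and clones 15 to 25 gave −1.40, where 1 of 11 did. Primary cells lay below the monocytic median but in part within the monocytic range: 100.5 and 118 CPM in classical, 46.2 and 34.3 in intermediate and 26.3 and 36.2 in nonclassical monocytes. In the classes it was at 31.4 and 47.0 CPM in class 1, 81.8 and 109.8 in class 2, 47.1 and 71.7 in class 3 and 7.73 and 12.3 in class 4, the lowest of all groups.

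Cebpb, the C/EBP family member tied to mature monocytes and macrophages, rose without overlap from between 18.04 and 49.1 CPM in progenitors (median 25.6) to between 70.2 and 593 CPM in monocytic cells (median 182). The increase was 2.74 (SE 0.193, adjusted p = 5.35e-13) in 24 of 24 clones. Every primary library lay above every clone library. Cebpb was at 1643 and 1779.6 CPM in classical, 1961 and 2256 in intermediate and 3551 and 5783 in nonclassical monocytes, and these ranges rose in that order without overlap. In the classes it was at 2574 and 2637 CPM in class 1, 2852 and 3068 in class 2, 1049.9 and 1087 in class 3 and 906 and 1050.1 in class 4.

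Cebpd, an early-response member of the family, rose from between 16.7 and 72.1 CPM (median 25.1) to between 96.8 and 553 CPM (median 219), again without overlap. The increase was 3.06 (SE 0.129, adjusted p = 1.96e-17) in 24 of 24 clones. In the primary subsets the order was the reverse of that of Cebpb, with 119.8 and 134 CPM in classical, 56.7 and 63.1 in intermediate and 39.2 and 55.8 in nonclassical monocytes. The intermediate and nonclassical libraries lay within the range of the progenitor clones, but only because of clones 20 and 21 (63.8 and 72.1 CPM). Every other progenitor library had at most 34.1 CPM. The clone 21 value rests on 33 counts. Among the classes Cebpd reached from 123 CPM in a class 1 library to 228 CPM in a class 4 library.

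Cebpe, the factor of late granulocyte maturation, had the largest change of the 8. It ranged from 1.92 to 91.0 CPM in progenitors (median 6.83) and from 12.98 to 812 CPM in monocytic cells (median 339). These ranges overlapped, and clones 20 and 21 held 91.0 and 76.5 CPM as progenitors, the latter from 35 counts. Within clones the direction was the same in 24 of 24, with an increase of 4.94 (SE 0.453, adjusted p = 1.07e-10). Primary monocytes held far less than most monocytic clones: 10.1 and 13.8 CPM in classical, 10.5 and 27.6 in intermediate and 2.93 and 1.04 in nonclassical cells. In the classes it was at 7.41 and 7.78 CPM in class 1, 10.96 and 9.59 in class 2, 39.8 and 37.3 in class 3 and 67.8 and 131 in class 4, the highest primary values.

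Gfi1, the repressor that opposes Irf8-driven monocyte genes and supports granulocytes, was the factor with no call. It ranged from 43.0 to 289 CPM in progenitors (median 101) and from 7.86 to 339 CPM in monocytic cells (median 97.9). The change was −0.49 (SE 0.280, adjusted p = 0.112), with 8 clones higher and 16 lower. Clones 1 to 13 fitted alone gave 0.14, which did not pass (adjusted p = 0.586), with 7 of 13 clones higher. Clones 15 to 25 fitted alone gave −1.28, which passed (adjusted p = 0.0202). In primary cells it was near the limit of detection in classical monocytes (0.393 and 0.426 CPM, from 11 and 8 counts) and in class 2 (0.373 and 0.622 CPM). It was at 25.96 and 15.5 CPM in intermediate monocytes and at 24.5 and 0.291 CPM in the nonclassical pair, whose members thus disagree. Class 1 had 1.17 and 2.81 CPM, class 3 had 3.49 and 3.74 and class 4 had 25.9 and 70.2.

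The size of the change from GMP to monocytic cells differed between the clone sets for 5 of the 8 factors (interaction term in edgeR's quasi-likelihood fit), against 23.7% of all genes. The change was smaller or more negative in clones 15 to 25 for Cebpe (by −2.85, SE 0.573, adjusted p = 0.00103), Gfi1 (−1.44, SE 0.490, adjusted p = 0.0337), Cebpb (−1.44, SE 0.236, adjusted p = 0.000158), Cebpa (−1.08, SE 0.281, adjusted p = 0.00717) and Cebpd (−0.58, SE 0.215, adjusted p = 0.0489). The median over all genes was −0.11. Cebpe thus rose by 6.15 for clones 1 to 13, against 3.34 for clones 15 to 25. Its monocytic level in the latter reached from 12.98 to 812 CPM (median 85.4), against 182 to 745 CPM (median 352) in clones 1 to 13. For Gfi1 the sets already differed as progenitors, with a median of 96.6 CPM against 177 CPM in clones 15 to 25. Irf8 (−0.08, SE 0.529), Klf4 (0.29, SE 0.433) and Sfpi1 (0.27, SE 0.134) did not pass. The Cebpd call was lost with DESeq2 size factors (adjusted p = 0.0916), by DESeq2 (0.0675), with no filter (0.25) and at a minimum count of 50 (0.0575). The Gfi1 call was lost with no filter (adjusted p = 0.0669), and DESeq2 called Sfpi1 (0.37, adjusted p = 0.00948). Depth differs between the same sets, and set and depth cannot be told apart.

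**Figure D2:**
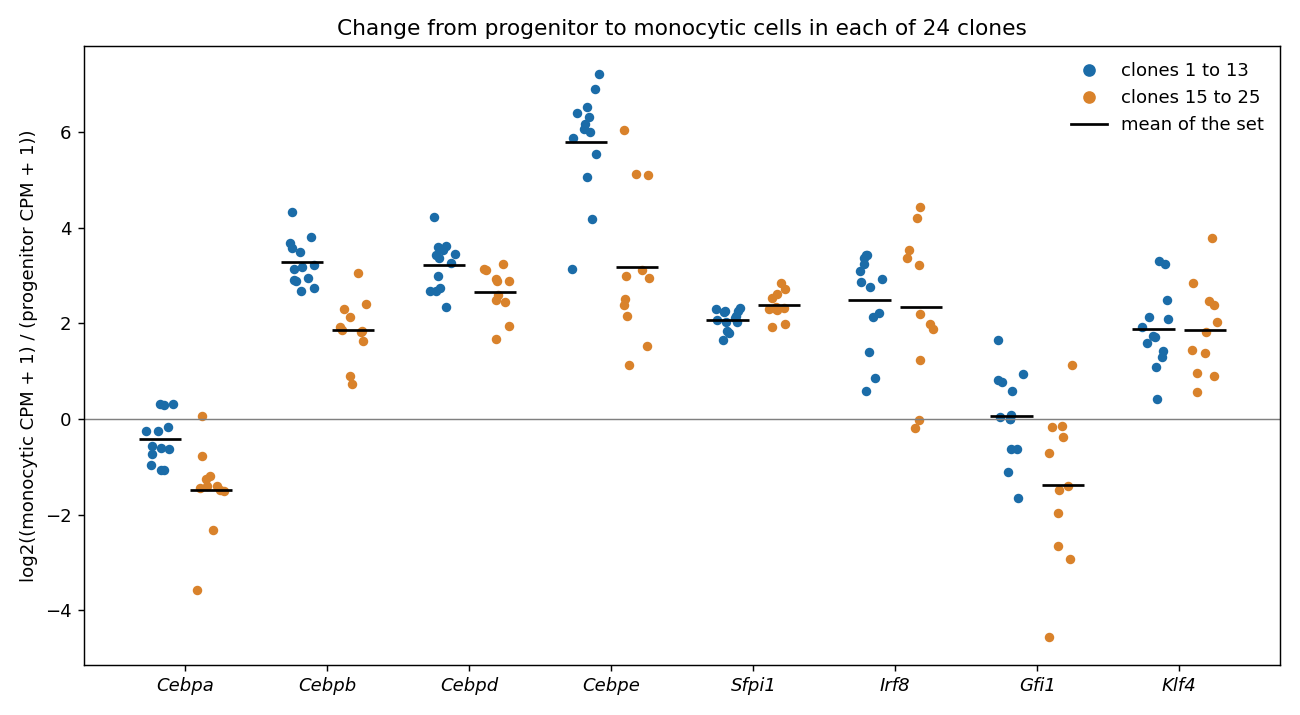
Change of each factor within each of 24 clones, as the log2 ratio of monocytic to progenitor CPM with 1 added to each, with blue points for clones 1 to 13, orange points for clones 15 to 25 and bars for set means. All 24 points lie above 0 for Sfpi1, Cebpb, Cebpd, Cebpe and Klf4 (the Klf4 point of clone 21 rests on 0 and 7 counts), and the orange points of Cebpe, Cebpb, Cebpa and Gfi1 lie lower on average than the blue ones.

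The series title asks how rigid the fate of a clone is, so the progenitor level of each factor was set against the monocytic level of the same clone. Sfpi1 kept its rank: clones with more as progenitors had more as monocytic cells (r = 0.78, rho = 0.71 over 24 clones, permutation p = 2e-05, adjusted p = 0.00215 over 11614 genes). In this test 8.25% of all genes were called. With the mean of each set removed, r was 0.83 (adjusted p = 0.0159). Clones 1 to 13 gave 0.46 and clones 15 to 25 gave 0.88, neither of which passed alone (adjusted p = 0.696 and 0.0532 by permutation), and 0.63 without clones 20 and 22, the farthest from the median. Clone 22 had the least Sfpi1 in both states (85.1 and 327 CPM), and clones 20 and 21 the most in monocytic cells (1335 and 1464 CPM).

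Klf4 passed as well (r = 0.58, rho = 0.49, permutation p = 0.00391, adjusted p = 0.0479) but did not by rank (adjusted p = 0.153), with set means removed (adjusted p = 0.322) or without clone 21 (r = 0.46, adjusted p = 0.165), and r was 0.32 without clones 19 and 21. The other 6 factors did not pass. Their r was 0.46 for Cebpd, 0.25 for Irf8, 0.15 for Cebpe, −0.08 for Gfi1, −0.17 for Cebpa and −0.33 for Cebpb. The r of Cebpd rested on clones 20 and 21 and was −0.06 without them. A joint test of all clone terms in the paired fit, with 11.7% of genes called, passed for Sfpi1 (adjusted p = 0.00204) and Cebpd (adjusted p = 0.0391), the latter not without clone 21 (adjusted p = 0.247). Neither passed in clones 1 to 13 alone (adjusted p = 1 for both).

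**Figure D3:**
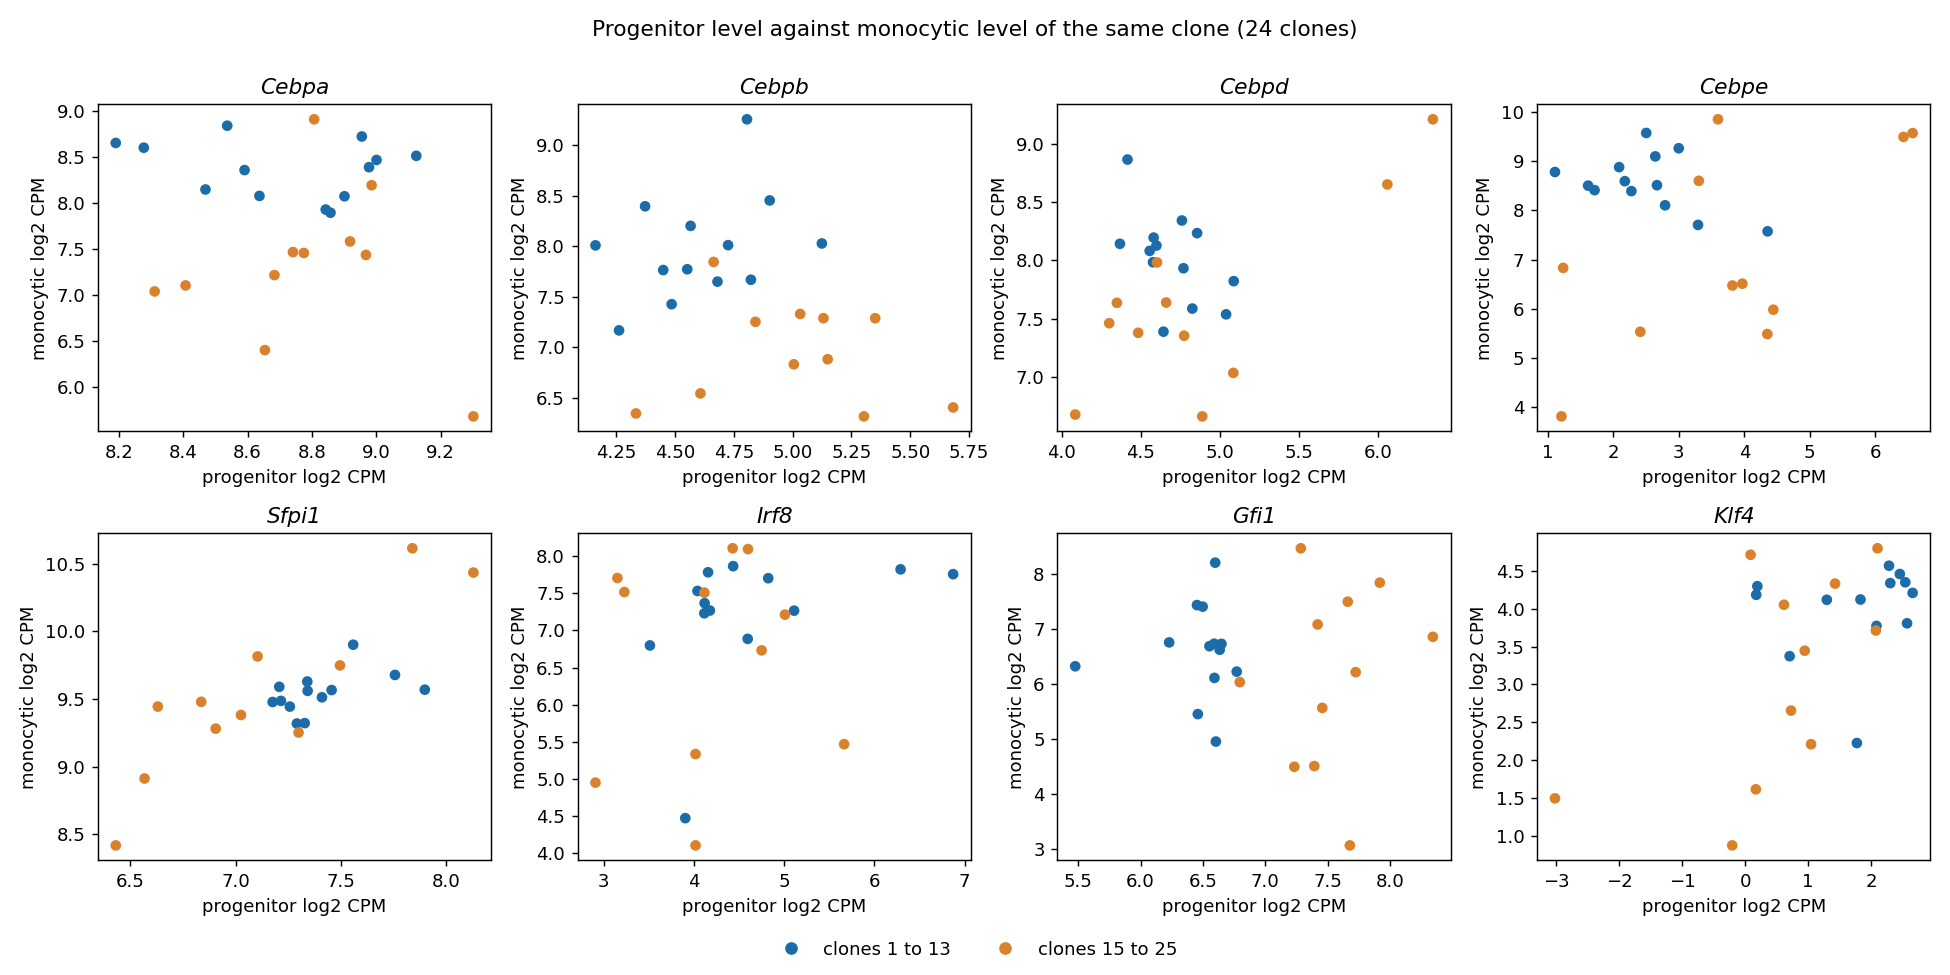
Progenitor level (horizontal axis) against monocytic level (vertical axis) of the same clone in log2 CPM, 1 panel per factor and 1 point per clone, coloured by clone set. The points of Sfpi1 rise from lower left to upper right (r = 0.78), while those of Cebpa, Cebpb and Gfi1 show no such line (r = −0.17, −0.33 and −0.08).

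Relations between the factors over clones were computed for 28 pairs in each state, 56 in all. Monocytic Irf8 was left out of pooled values because 5 clones stood apart from the rest. Clones 19, 9, 21, 22 and 20 had 15.05, 21.6, 28.7, 38.4 and 42.5 CPM, and the other 19 clones between 100.3 and 261 CPM. Of the 49 remaining relations, 15 passed (permutation test, adjusted over 56), 9 among progenitors and 6 among monocytic cells. Of these 15, 10 had the same sign in both clone sets and 7 also passed with set means removed.

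Among progenitors Cebpb, Cebpd and Cebpe were related in pairs, and Cebpd and Cebpe with Sfpi1, whereas no relation of Cebpa passed, nor that of Cebpb with Sfpi1 (r = 0.23, adjusted p = 0.399 by permutation). Cebpb and Cebpe had r = 0.69 and rho = 0.70 (permutation p = 0.00019, adjusted p = 0.00266), with 0.48 and 0.66 within the sets and 0.62 without the 2 farthest clones. Cebpd and Sfpi1 had r = 0.74 and rho = 0.62 (permutation p = 1e-05, the smallest that 100000 permutations can give, adjusted p = 0.00056), with 0.73 and 0.90 within the sets and 0.69 without the farthest clones. Cebpd and Cebpe had r = 0.76 (adjusted p = 0.00149), but 0.11 in clones 1 to 13 and 0.40 without clones 20 and 21, so that this relation rests largely on those clones. Cebpe and Sfpi1 had r = 0.49 (adjusted p = 0.0437 by permutation), from 0.94 in clones 15 to 25 and 0.078 in clones 1 to 13. Their r was 0.18 without the farthest clones, and they did not pass by rank (rho = 0.33, adjusted p = 0.24) or without clone 21 (adjusted p = 0.134). Cebpb and Cebpd had r = 0.51 (adjusted p = 0.0351), but 0.29 without the farthest clones, and did not pass by rank (adjusted p = 0.0668). Gfi1 ran with Cebpe (r = 0.56, adjusted p = 0.0263 by permutation) and Cebpb (0.52, adjusted p = 0.0347). Klf4 ran against Gfi1 (−0.52, adjusted p = 0.0351) and Cebpe (−0.51, adjusted p = 0.0405). None of these relations of Gfi1 and Klf4 passed with set means removed (adjusted p from 0.202 to 0.678).

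In monocytic cells Cebpd and Cebpe again rose together, with r = 0.67 and rho = 0.79 (permutation p = 0.00031, adjusted p = 0.00327), 0.61 and 0.63 within the sets and 0.66 without the farthest clones. Cebpb ran with Klf4 (r = 0.65, rho = 0.71, permutation p = 0.00057, adjusted p = 0.00456), with 0.55 and 0.64 within the sets and 0.60 without the farthest clones. Cebpd and Sfpi1 had r = 0.68 (adjusted p = 0.00327), from 0.84 in clones 15 to 25 and −0.03 in clones 1 to 13. Cebpe and Gfi1, both of the granulocyte programme, had r = 0.54 and rho = 0.57 (permutation p = 0.00588, adjusted p = 0.0299). Clones 1 to 13 gave 0.88 and clones 15 to 25 gave 0.48, and the relation did not pass with set means removed (adjusted p = 0.11) and was 0.37 without the farthest clones. Cebpa passed with Gfi1 (r = 0.50, adjusted p = 0.0405 by permutation) and Klf4 (r = 0.53, adjusted p = 0.0347). Neither relation of Cebpa passed by rank (adjusted p = 0.289 and 0.155) or with set means removed (0.108 and 0.283).

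For monocytic Irf8 the 19 clones above the gap were examined alone, over 9 relations. Irf8 ran against Cebpe (r = −0.54, rho = −0.59, permutation p = 0.0167) and against Gfi1 (r = −0.54, rho = −0.46, permutation p = 0.0154), and with the mean of the 14 monocyte genes (r = 0.59, rho = 0.60, permutation p = 0.00764). The adjusted p was 0.0501 for each of these 3, just short of the threshold. Without the 2 farthest clones, 2 and 16, r was −0.48, −0.51 and 0.50. The relation with Cebpe was closer within the sets, whose Cebpe levels differ. It was −0.85 in the 12 such clones of clones 1 to 13 (permutation p = 0.00045, adjusted p = 0.0081 over 18 relations) and −0.72 in the 7 of clones 15 to 25 (exact permutation p = 0.0724, adjusted p = 0.186). Irf8 and Klf4 had r = 0.46 (permutation p = 0.0441, adjusted p = 0.0992). The neutrophil granule list had −0.38 with Irf8 (permutation p = 0.108, adjusted p = 0.161).

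The 5 clones below the gap are described by their values only. Klf4 was at 1.505 CPM in clone 19, 4.47 in clone 9, 2.51 in clone 21, 10.3 in clone 22 and 4.34 in clone 20. Cebpe was at 812, 745, 671, 109 and 730.5 CPM in the same order, and the highest 4 monocytic Cebpe levels of the 24 clones were those of clones 19, 9, 20 and 21. Gfi1 was at 203, 291, 108, 339 and 71.6 CPM. Clone 22 differed from the other 4 in that Cebpe and Sfpi1 were low while Cebpa was at 459.8 CPM, the highest monocytic value. Its monocytic mean log2 CPM was 1.22 for the neutrophil granule genes and 6.13 for the monocyte genes, each the lowest of the 24 clones.

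**Figure D4:**
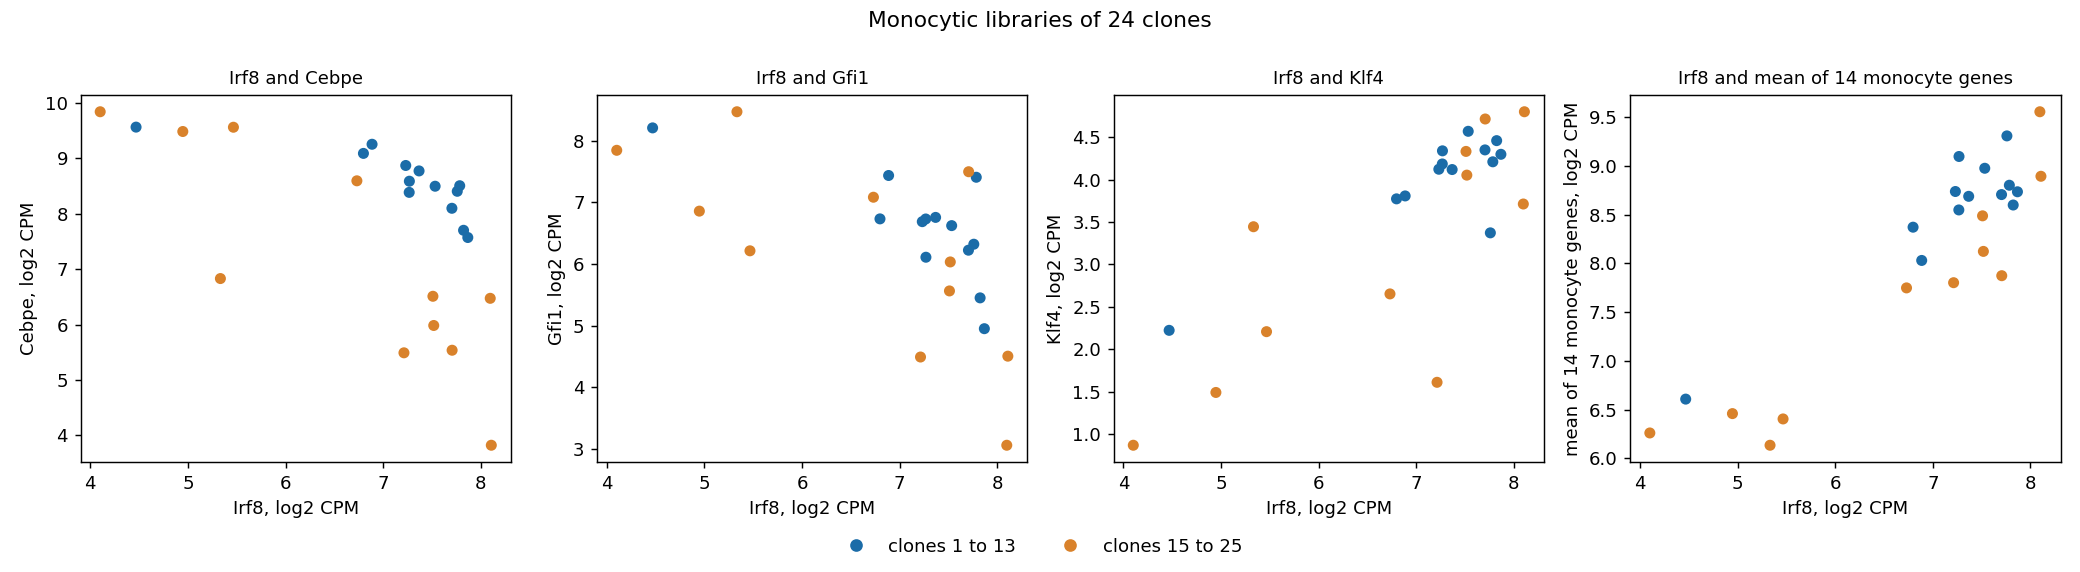
Monocytic libraries of 24 clones, with Irf8 on the horizontal axis and Cebpe, Gfi1, Klf4 and the mean of 14 monocyte genes on the vertical axes, all in log2 CPM, coloured by clone set. The 5 clones with 15.05 to 42.5 CPM of Irf8 lie apart at the left. To their right, clones with more Irf8 tend to have less Cebpe within each set (r = −0.85 and −0.72). This relation passed only in clones 1 to 13.

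The factors were next set against products of the lineages they serve, as the mean log2 CPM of the 13 neutrophil granule genes or the 14 monocyte genes. Of 46 relations without monocytic Irf8, 13 passed (permutation test, adjusted over 48). Cebpe followed the neutrophil granule genes in both states, with r = 0.71 and rho = 0.74 in progenitors (permutation p = 0.00015, adjusted p = 0.00144) and r = 0.78 and rho = 0.75 in monocytic cells (permutation p = 7e-05, adjusted p = 0.00084). Within the sets r was 0.73 and 0.78 in progenitors and 0.68 and 0.71 in monocytic cells, and without the 2 farthest clones 0.51 and 0.75. Cebpd also followed them in monocytic cells (r = 0.65, rho = 0.80, permutation p = 0.00051, adjusted p = 0.00306), with 0.52 and 0.64 within the sets and 0.71 without the farthest clones. Sfpi1 did so too (r = 0.66, rho = 0.56, permutation p = 0.00045, adjusted p = 0.00306), but with 0.07 and 0.86 within the sets and 0.46 without the farthest clones. With the monocyte genes monocytic Sfpi1 had r = −0.18 and did not pass (adjusted p = 0.564 by permutation). Cebpb followed the monocyte genes in monocytic cells (r = 0.71, rho = 0.73, permutation p = 7e-05, adjusted p = 0.00084), as did Klf4 (r = 0.74, rho = 0.59, adjusted p = 0.00176), with 0.52 and 0.71, and 0.76 and 0.65, within the sets and 0.71 and 0.61 without the farthest clones. Gfi1 ran against them (r = −0.57, rho = −0.53, permutation p = 0.00392, adjusted p = 0.0183), with −0.63 and −0.80 within the sets and −0.59 without the farthest clones. Among progenitors Cebpd also passed with the neutrophil granule genes (r = 0.57, adjusted p = 0.0177 by permutation), with −0.044 in clones 1 to 13. Progenitor Cebpb and Irf8 passed with the monocyte genes (r = 0.52 and 0.49, adjusted p = 0.0359 and 0.0495 by permutation). None of these progenitor relations passed by rank (adjusted p = 0.0552, 0.053 and 0.148).

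A progenitor level of Sfpi1 went with the later neutrophil granule level of the clone (r = 0.77, rho = 0.66, permutation p = 3e-05, adjusted p = 0.00072). Clones 15 to 25 gave 0.83 and clones 1 to 13 gave −0.02, so it did not hold in both sets. Progenitor Klf4 and Gfi1 went with the later monocyte genes at r = 0.52 and −0.56 (adjusted p = 0.034 and 0.0183), and neither passed with set means removed (adjusted p = 0.223 and 0.245). The 2 lists hold no member, but all values of a relation within a state come from the same libraries and share their depth.

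Other transcription factors of monocytes, macrophages and dendritic cells moved largely with the rising members. Of 27 listed, 23 were tested and 22 were higher in monocytic cells and 1 lower, with a median change of 2.78 against −0.02 over all genes. Among all genes 38.5% were higher and 40.1% lower. Maf, a bZIP factor of macrophages, rose by 4.68 (SE 0.370, from 4.23 ± 3.13 to 139 ± 142 CPM, SD, n = 24). Id2, an inhibitor of bHLH factors, rose by 5.72 (SE 0.354) and Klf2 by 5.46 (SE 0.247). Tcf4, the E protein of plasmacytoid dendritic cells, was the 1 that fell, by 1.51 (SE 0.142), in 24 of 24 clones.

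In the paired comparison 38.5% of all genes were higher and 40.1% lower. Of 25 partners and antagonists of the members, all tested, 10 were higher, 13 lower and 2 did not pass, with a median of −0.45. Of those that fell in at least 22 of 24 clones, the 4 with the largest change were Trib2, which marks C/EBPα for degradation (−6.23, SE 0.362), Gfi1b, the Gfi1 paralog of erythroid and megakaryocytic cells (−4.95, SE 0.359), Gata2, the stem and mast cell factor (−4.46, SE 0.432), and Myb, the progenitor proto-oncogene (−3.03, SE 0.296). Ets1 (4.52, SE 0.434), the retinoic acid receptor Rara (3.79, SE 0.271), the AP-1 subunit Jun (3.25, SE 0.202) and Id1 (2.75, SE 0.249) had the largest increases under the same rule. Ikzf1, the most expressed of the 2 without a call, was at 0.04 (SE 0.139, adjusted p = 0.809).

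The genes most like each factor over the 48 clone libraries, with the mean of each state and set removed and among 7165 genes, are given as a description. For Cebpe they were Pglyrp1, a granule protein that binds peptidoglycan (r = 0.90), Cnn2 (0.86) and Rhou (0.85). For Irf8 they were Irf5 (0.80), Hpse, the heparanase (0.79), and Zeb2, a repressor active in monocytes and dendritic cells (0.78). For Gfi1 they were Myb (0.89), Frat2 (0.87) and Gpr97 (0.86), with r in progenitors alone of only 0.26, 0.37 and 0.26. Sfpi1 had Ralb (0.90), Rhog (0.89) and Myo1f (0.86), and Cebpd had Twf2 (0.87), Nfkbia, the NF-κB inhibitor (0.85), and Prdx5 (0.84). The values were lower for Klf4 (D15Ertd621e, 0.77), Cebpa (Ppm1f, 0.74) and Cebpb (Tpm4, 0.67).

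In primary monocytes the subsets were compared by the classical, intermediate and nonclassical labels. Nonclassical cells had less Cebpa (−1.76, SE 0.261, adjusted p = 0.0317) and Cebpd (−1.38, SE 0.206, adjusted p = 0.032) and more Cebpb (1.48, SE 0.226, adjusted p = 0.0345) than classical cells, 3 of 8 factors against 5.82% of all genes. Of the 27 monocyte and dendritic factors, 6 were higher in this contrast (Spib, Irf4, Nr4a1, Zbtb46, Junb and Tcf4) and none lower. With 2 libraries a group these calls are fragile: each was lost without either classical library, with adjusted p up to 0.313 for Cebpa, 0.338 for Cebpd and 0.368 for Cebpb. The Cebpa call was also lost without either nonclassical library, the Cebpb call without nonclassical replicate 2 or either intermediate library, and the Cebpd call without any 1 of the 6 libraries. Their direction and size held (−1.91 to −1.64, −1.56 to −1.24 and 1.19 to 1.70).

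No factor passed in intermediate against classical cells (2.11% of genes called), in nonclassical against intermediate cells (0% called, with 1710 genes at an unadjusted p under 0.05 in edgeR and 1212 called by DESeq2), or in the joint test of the 3 subsets (2.95% called), where Cebpa, Cebpd and Cebpb missed at adjusted p = 0.0542, 0.0564 and 0.0589. With the replicate number as a block, the joint test passed for Cebpb (adjusted p = 0.0472), and the Cebpa call in nonclassical against classical cells was lost (adjusted p = 0.0547). Intermediate cells lay between the others for Cebpd and Cebpb. For Cebpa they overlapped nonclassical cells (46.2 and 34.3 against 26.3 and 36.2 CPM). Marker genes of other cells moved with the labels. Mast cell and basophil genes (12 listed) summed to 12.7 and 19.6 CPM in classical, 4171 and 8980 CPM in intermediate and 1809.5 and 7204 CPM in nonclassical cells, with the mast cell proteases Mcpt4 and Tpsb2 at 0 in all 3. Dendritic cell genes (9 listed) summed to 279.8 to 303 CPM in classical and 6999 to 9808 CPM in the other subsets, and B cell genes (8 listed) to 519 to 574, 1196 to 1323 and 4425 to 4745 CPM. Primary granule genes (6 with a row) summed to 782 and 1107 CPM in classical, 4291 and 13082 in intermediate and 145 and 506 in nonclassical cells. The 13 neutrophil granule genes summed to 6670 and 5833, 4760 and 3598, and 1515 and 344 CPM in the same order. The part of these lists in the differences was not tested.

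The 4 classes differed far more. In the joint test 43.8% of all genes and 7 of 8 factors passed, all but Cebpd (adjusted p = 0.0785). Of 30 calls of factors in the 6 pairwise contrasts, 17 held without each library in turn. These concern Cebpb, Cebpe, Cebpa, Gfi1, Irf8 and Klf4, and they set class 4, and for some factors class 3, apart.

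Class 4 had the least Cebpa and the most Cebpe of the primary groups, and the most Gfi1 of the classes. Its lower Gfi1 library was at the level of an intermediate one. Against class 1 Cebpa was lower by 1.96 on the log2 scale (−1.96, SE 0.336, adjusted p = 0.00495), while Cebpe was higher by 3.72 (SE 0.328, adjusted p = 0.000375), Gfi1 by 4.60 (SE 0.631, adjusted p = 0.00201) and Cebpb lower (−1.41, SE 0.127, adjusted p = 0.000393). These were among 7 called factors, with 25.1% of genes called. Against class 2 (40.9% called), 6 factors passed, with Cebpa at −3.33 (SE 0.351), Gfi1 at 6.55 (SE 0.714), Cebpe at 3.21 (SE 0.320), Klf4 at −2.03 (SE 0.223), Cebpb at −1.66 (SE 0.128) and Sfpi1 at −0.40 (SE 0.109). Against class 3 (28.6% called), 5 passed, with Cebpa at −2.57 (SE 0.341), Gfi1 at 3.73 (adjusted p = 0.00347), Irf8 at −0.96 (SE 0.121), Cebpe at 1.36 (SE 0.296) and Klf4 at −1.01 (SE 0.217). The last 2 did not pass without a class 3 library (adjusted p up to 0.0921 and 0.0818), Klf4 without replicate 2 only.

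Class 3 combined the highest Irf8 with raised Cebpe and low Cebpb. Against class 1 (13.4% of genes called) Cebpe was higher by 2.35 (SE 0.312, adjusted p = 0.00266) and Cebpb lower (−1.28, SE 0.126, adjusted p = 0.000809). Irf8 was at 0.70 (SE 0.120, adjusted p = 0.00816) and Sfpi1 at −0.45 (SE 0.109, adjusted p = 0.0305), and these 2 calls were fragile. The Irf8 call was lost without either class 1 library or class 3 replicate 2 (adjusted p up to 0.0708), and the Sfpi1 call without any 1 library of classes 1 and 3 (adjusted p up to 0.195). Against class 2 (24.2% called) Irf8 was higher by 1.09 (SE 0.121, adjusted p = 0.000435), Cebpe by 1.84 (SE 0.305, adjusted p = 0.00335) and Cebpb lower (−1.53, SE 0.127, adjusted p = 9.69e-05), and Sfpi1, Klf4 and Gfi1 passed less firmly.

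Class 2 exceeded class 1 (9.29% of genes called) in Klf4 (1.26, SE 0.218, adjusted p = 0.0103) and Cebpa (1.36, SE 0.324, adjusted p = 0.0383). The Klf4 call was lost without either class 1 library or class 2 replicate 2 (adjusted p up to 0.102), and the Cebpa call without any 1 library of classes 1, 2 and 3 (adjusted p up to 0.226). Of the 27 monocyte and dendritic factors, 4 were higher and 2 lower in class 2 against class 1. In class 3 against class 1, where 13.4% of all genes were called, 16 were lower and 1 higher, and in class 4 against class 1, with 25.1% called, 14 were lower and 2 higher.

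Markers of other lineages moved with the classes too. The 13 neutrophil granule genes summed to 37919 and 49701 CPM in class 4, against 4785 to 12369 CPM in classes 1 to 3. Primary granule genes such as Mpo and Elane (6 with a row) summed to 10098 to 11363 CPM in class 4, 6538 to 8168 CPM in class 3 and 64.7 to 1065 CPM in classes 1 and 2. Erythroid and megakaryocyte genes (10 with a row) summed to 3726 to 4749 CPM in class 4 and at most 125 CPM in the others. The 14 monocyte genes summed to 65379 to 81040 CPM in classes 1 and 2, 30477 to 34727 CPM in class 3 and 20197 to 20409 CPM in class 4. Their part in the Cebpe and Gfi1 levels was not tested.

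**Figure D5:**
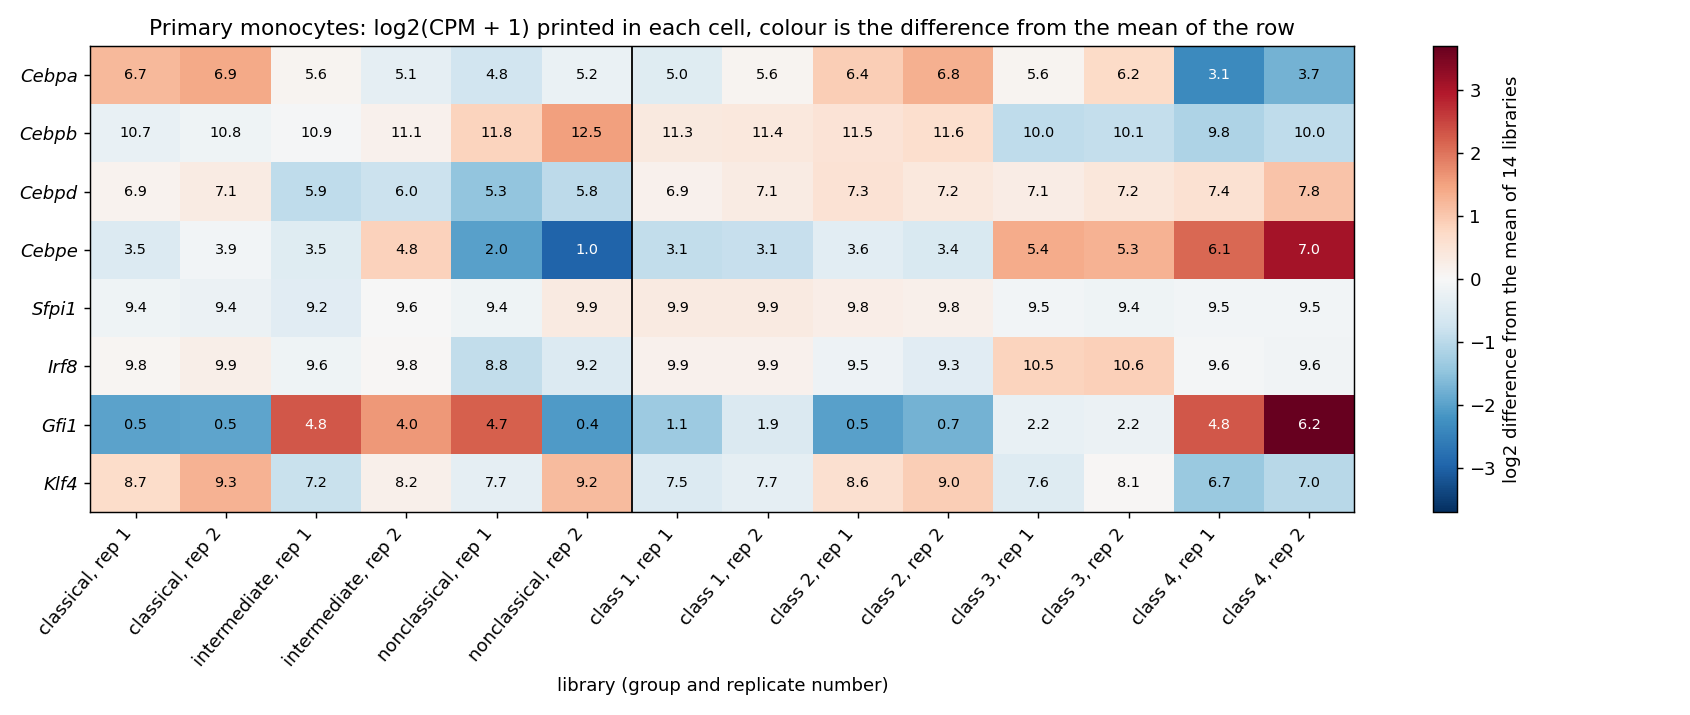
The 14 primary libraries in columns and the 8 factors in rows, with log2(CPM + 1) printed in each cell and the colour giving the difference from the mean of the row. Class 4 stands out by low Cebpa and high Cebpe, and class 3 by high Irf8. Gfi1 is highest in class 4 among the classes, but its lower class 4 library is at the level of an intermediate one. The 2 nonclassical libraries differ in Gfi1.

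Across all 9 groups the factors fell into different orders. Cebpb fell from nonclassical cells through class 2, class 1, intermediate and classical cells to classes 3 and 4, which overlapped, and then to monocytic clones and progenitors. Irf8 fell from class 3 through class 1 and classical cells, which overlapped, to intermediate cells and class 4, which overlapped as well, then class 2, nonclassical cells, monocytic clones and progenitors. Cebpe was highest in monocytic clones and then in class 4, which lay within the range of the clones, followed by class 3. Gfi1 was highest in progenitors, monocytic clones and class 4, whose ranges overlapped, and class 4 overlapped intermediate cells as well. Cebpa was highest in progenitors and monocytic clones, which also overlapped. Sfpi1 separated progenitors from all other groups, while monocytic clones overlapped every primary group.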

How the data were processed

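Gene counts of 62 libraries were used as deposited. Per the submitters' processing notes the authors used STAR 2.7.3a, HTSeq 0.6.0 and the mm9 build to make the deposited counts. Strand setting, annotation release and filters are not given in the sources used here, so reads of overlapping genes cannot be separated. 1 column with no sample in the labels was left out.

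Genes were kept with edgeR's filterByExpr (minimum count 10), scaled by TMM and tested with edgeR 4.0.16 quasi-likelihood F tests in R 4.3.3, with Benjamini-Hochberg adjustment over all genes tested and a threshold of 0.05. The clone fit had a term for each clone, since the titles pair the 2 states of a clone. Subsets and classes were fitted separately, each with 2 libraries a group and no block. The labels do not say that replicate numbers pair these libraries, but same-numbered subset libraries deviated together (correlations of 0.146, 0.232 and 0.355), and those of the classes did not (−0.018 to 0.062), so blocked subset values are given where a call changed. A standard error is the log2 fold change divided by the square root of F. Levels per kilobase used union exon lengths of GENCODE M21. Relations over clones used log2 CPM (prior count 2) and 100000 permutations, exact for 7 clones. DESeq2 1.42.0, other filters and scalings, single clone sets and left-out libraries were alternatives. Those without clone 21, and the clones above the Irf8 gap, were chosen after seeing the data. The tests were tested on simulated data.

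The members, lists and tests were chosen with earlier results of these data known. Beside the 8 members, named genes were the 3 most like each member (mean log2 CPM of at least 4), and per list and direction the 4 largest paired changes that passed and went one way in at least 22 of 24 clones, with the most expressed gene that did not pass. A gene that this rule names is not reported here. The lists were 2 of other transcription factors and 8 of lineage markers.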

Additional observations from a re-analysis of the deposited data

Results flagged for a closer look

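The change from GMP to monocytic cells differed between clones 15 to 25 and clones 1 to 13 for 5 of the 8 factors, by the interaction term of edgeR's quasi-likelihood fit. The same test called 23.7% of all genes. The Cebpd call was lost in 4 of 5 alternatives, and the Gfi1 call with no filter (adjusted p = 0.0669 by edgeR). The difference was −2.85 for Cebpe, −1.44 for Gfi1, −1.44 for Cebpb, −1.08 for Cebpa and −0.58 for Cebpd, all on the log2 scale, with adjusted p = 0.00103, 0.0337, 0.000158, 0.00717 and 0.0489. Monocytic libraries of clones 15 to 25 held 1.83 to 9.12 M counts and those of clones 1 to 13 held 22.9 to 34.5 M. The part of depth in these differences was not tested.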

How the results depend on the processing

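In the paired comparison 7 factors were called with and without the replicate block (8913 genes without it, 9132 with it), and 6070 genes were called in clones 15 to 25 alone. Gfi1 turned to 0.14 in clones 1 to 13, with no call. For the difference between clone sets, Irf8 turned to 0.0093 with DESeq2 size factors and 0.041 with no filter, and 3 factors were called with no filter. The clone effect was called for 1357 genes and 2 factors, for 4122 and 5 by DESeq2, 2054 genes with no filter, 36 genes and 0 factors in clones 1 to 13, 387 genes in clones 15 to 25, and 1 factor without clone 21.

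DESeq2 called 3613 genes and 5 factors among subsets (edgeR 412 and 0), 3103 and 3 in intermediate against classical cells (294 and 0), 3357 and 6 in nonclassical against classical cells (811 and 3), and 1212 and 3 in nonclassical against intermediate cells (0 and 0). Among subsets 1 factor was called with no filter, 2 at a minimum count of 50 and 1 with the replicate block. The block gave 339 genes among subsets and 5558 among classes. It called 5 factors in class 3 against class 1 (4 without it) and 7 in class 3 against class 2 (6 without it). In class 2 against class 1, DESeq2 called 2234 genes and 4 factors and no filter gave 2325 genes, against 1272 and 2. In class 3 against class 1 DESeq2 called 2797 genes, against 1831.

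Leaving out 1 library gave 0 to 404 genes and 0 to 2 factors among subsets, 0 to 205 genes in intermediate against classical cells, and 0 to 869 genes and 0 to 1 factors in nonclassical against classical cells. For classes it gave 495 to 2325 genes and 0 to 3 factors (2 against 1), 615 to 2944 and 2 to 4 (3 against 1), 1546 to 4305 and 4 to 6 (4 against 1), 1922 to 4342 and 3 to 6 (3 against 2), 3487 to 6099 genes (4 against 2), and 1798 to 4704 and 3 to 6 (4 against 3).

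For progenitor against monocytic level, 958 genes and 2 factors were called. Rank correlation gave 421 and 1, centring on the clone set 135 and 1, clones 1 to 13 gave 0 and 0 (950 genes at an unadjusted permutation p under 0.05), and clones 15 to 25 gave 46 and 0. It was 1 factor without clone 21 and with a prior count of 0.5. The r of Cebpb turned to 0.11 when centred and 0.35 in clones 1 to 13, and that of Gfi1 to 0.13, 0.037 and, in clones 15 to 25, 0.17. In clones 1 to 13 the r of Cebpd was −0.52 and of Cebpe −0.44, and without the 2 farthest clones −0.065 and −0.13.

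Between factors 5 relations were called in each clone set alone, against 15. In clones 1 to 13 the sign turned for Cebpb with Gfi1 (−0.14) and Gfi1 with Klf4 (0.32) in progenitors and for Cebpa with Gfi1 (−0.15), Cebpa with Klf4 (−0.021) and Cebpd with Sfpi1 (−0.029) in monocytic cells. With lists 8 were called by rank, 3 in clones 1 to 13 and 7 in clones 15 to 25, against 13. In clones 1 to 13 the sign turned for progenitor Cebpd with neutrophil genes (−0.044), progenitor Sfpi1 with later neutrophil genes (−0.018) and progenitor Klf4 with later monocyte genes (−0.10). The cause of these changes was not tested. Of 72 group levels, 22 moved by over 1 SD with plain totals and 11 with DESeq2 size factors. At 0.362 M counts the clone 21 progenitor library limits Klf4 and Irf8, and its Cebpd and Cebpe levels rest on 33 and 35 counts.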
